A study of Mus musculus with 31 samples.

Results

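The inflammatory chemokine ligands described here are 10 genes: Ccl2, Ccl3, Ccl4, Ccl6, Ccl7, Ccl9, Ccl17, Ccl22, Cxcl2 and Cxcl10. They were taken by symbol from a table of 24302 listed symbols, and all 10 were found in it. Of these, 9 were among the 10327 genes whose levels were high enough to be tested; Cxcl2 was not. The RNA came from peritoneal macrophages of C57BL/6 mice aged 8.5 weeks, drawn into the abdominal cavity by an injection of 3% thioglycollate, harvested on day 4 and cultured overnight. The mice had a macrophage knockout of the nuclear receptor PPARγ (PPARgammaMPKO, here KO) or were controls, which some titles call WT. Library numbers run up to 4 in each genotype. The labels used here do not give the driver of the deletion or the exons removed. The 8 groups were KO and control cells with IL4 (20 ng/mL), KO and control cells with rosiglitazone (1 uM), a synthetic PPARγ ligand, KO and control cells with its vehicle DMSO, and KO and control cells left untreated; the treatments lasted 24 h. Each group had 4 libraries, except that KO cells with rosiglitazone had 3, which makes 15 libraries of KO cells and 16 of control cells.

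Chemokines are small secreted proteins that guide leukocytes through receptors on the cell surface, and macrophages are a main source of them. Ccl2 and Ccl7 attract monocytes through CCR2. Ccl3 and Ccl4 are the macrophage inflammatory proteins, which attract monocytes and other leukocytes. Ccl3 acts on CCR1, which is the receptor of the mouse chemokines Ccl6 and Ccl9 as well. Ccl17 and Ccl22 attract helper T cells of the type 2 response and regulatory T cells through CCR4. Cxcl10 is an interferon-induced ligand of CXCR3 on T cells, and Cxcl2 attracts neutrophils through CXCR2. IL4 signals through the transcription factor STAT6 and drives the alternative activation of macrophages, whereas PPARγ bound to a ligand is known to restrain part of the NF-κB-driven inflammatory genes.

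Values are FPKM, fragments scaled by gene length and library size, as the authors made them, divided here by a factor per library. Differences are of log2(FPKM + 1) ± SE from a limma fit over all groups, which understate the change of genes below 1 FPKM, with p adjusted over all tested genes and 0.05 as its limit. The FPKM of a library summed to between 150719 and 305601, and the factors ranged from 0.5727 to 1.2. KO untreated libraries 2 and 3 and control IL4 library 2 had the lowest sums. Without rescaling, the median difference over all tested genes was as far as 0.31 from 0. Pparg itself does not check the labels: it had 37.6 to 130.6 FPKM in the 15 KO and 30.3 to 103.4 FPKM in the 16 control libraries, with no lower level in untreated KO than control cells beyond the spread (difference -0.14 ± 0.09, limma adjusted p = 0.499), a value for the whole gene that cannot show which exons were read. Pparg was higher in KO than in control cells with rosiglitazone (0.35 ± 0.10) and with IL4 (0.28 ± 0.09, limma adjusted p = 0.0141 and 0.0432). With DMSO the difference was 0.005 ± 0.09 (limma adjusted p = 0.991). IL4 raised Pparg by 1.37 ± 0.09 in KO and 0.955 ± 0.09 in control cells (limma adjusted p = 3.98e-12 and 4.88e-09). KO and control therefore mean the libraries so labelled. Of 8 tested PPARγ target genes, 6 were lower in KO than in control cells untreated and with DMSO, and 7 with rosiglitazone and with IL4. Of all tested genes, 2.58% were lower in KO untreated, 2.2% with DMSO, 6.68% with rosiglitazone and 5.77% with IL4. All 9 macrophage markers had at least 1 FPKM in all 31 libraries. Their levels summed to 1024 to 1417 FPKM per library, against at most 0.185 FPKM for the 5 listed T and NK cell markers and at most 1.62 FPKM for the 5 B cell and 1.09 FPKM for the 6 mast cell markers. The 6 listed neutrophil markers summed to 22.1 to 41.1 FPKM: S100a8 had 4.24 to 29.5, Csf3r 4.95 to 19.5 and Mmp8 0.878 to 27 FPKM, while Cxcr2, S100a9 and Retnlg reached at most 1.02, 0.255 and 0.0646 FPKM. The 5 eosinophil markers summed to 3.52 to 12 FPKM, of which Siglecf had 3.33 to 11.9 FPKM; Ccr3, Prg2 and Il5ra reached at most 0.267, 0.0528 and 0.0456 FPKM, and Epx was at 0 in all 31. The labels do not say whether libraries with the same number come from the same mouse, and p-values measure the spread between libraries.

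Most of these genes stand beside one another. In the RefSeq gene order, Ccl9, Ccl6, Ccl3 and Ccl4 are consecutive protein-coding genes, Ccl2 and Ccl7 are neighbours, and Ccl22 and Ccl17 are separated by Cx3cl1. RefSeq promoter windows of build GRCm38.p6, 300 bases long with 250 before the start, were found for 7 of the 10 genes. The 5 shown belong to the pair that was at or near 0 without IL4, Ccl17 (chr8:94810203-94810502, + strand) and Ccl22 (chr8:94745434-94745733, + strand), and to 3 neighbours of which the first 2 rose and the last fell with IL4: Ccl9 (chr11:83578587-83578886, - strand), Ccl6 (chr11:83593038-83593337, - strand) and Ccl3 (chr11:83649329-83649628, - strand). Each is written in the direction of its gene, with matches to the searched motifs in capitals.

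Ccl17: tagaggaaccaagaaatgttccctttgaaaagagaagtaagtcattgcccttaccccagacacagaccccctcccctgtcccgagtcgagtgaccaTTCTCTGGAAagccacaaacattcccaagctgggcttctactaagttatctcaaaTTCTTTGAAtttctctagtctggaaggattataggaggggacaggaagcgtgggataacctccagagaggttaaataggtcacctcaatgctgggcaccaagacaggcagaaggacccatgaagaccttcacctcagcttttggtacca

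Ccl22: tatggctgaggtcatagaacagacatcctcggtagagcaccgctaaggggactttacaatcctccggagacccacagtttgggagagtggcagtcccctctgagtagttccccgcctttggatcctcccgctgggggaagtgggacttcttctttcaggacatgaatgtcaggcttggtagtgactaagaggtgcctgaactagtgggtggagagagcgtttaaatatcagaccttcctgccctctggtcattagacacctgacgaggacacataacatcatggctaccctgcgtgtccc

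Ccl9: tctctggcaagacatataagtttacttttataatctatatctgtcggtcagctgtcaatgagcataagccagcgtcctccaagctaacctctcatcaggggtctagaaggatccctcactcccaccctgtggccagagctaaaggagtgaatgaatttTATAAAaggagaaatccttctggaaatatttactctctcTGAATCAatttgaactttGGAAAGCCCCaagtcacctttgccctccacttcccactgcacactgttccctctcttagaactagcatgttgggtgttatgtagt

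Ccl6: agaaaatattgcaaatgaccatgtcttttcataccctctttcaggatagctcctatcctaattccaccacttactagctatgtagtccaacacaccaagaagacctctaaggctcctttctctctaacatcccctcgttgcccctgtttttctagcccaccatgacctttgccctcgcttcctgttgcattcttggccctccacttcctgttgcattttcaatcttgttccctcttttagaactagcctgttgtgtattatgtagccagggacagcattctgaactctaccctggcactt

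Ccl3: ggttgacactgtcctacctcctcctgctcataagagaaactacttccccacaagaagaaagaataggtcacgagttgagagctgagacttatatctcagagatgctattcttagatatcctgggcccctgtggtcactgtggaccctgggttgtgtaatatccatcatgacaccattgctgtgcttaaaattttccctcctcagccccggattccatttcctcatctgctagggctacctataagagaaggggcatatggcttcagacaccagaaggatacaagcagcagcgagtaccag

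The Ccl17 window held the STAT6 pattern TTCNNNNGAA as TTCTCTGGAA, with its first base at position -154 from the start, and the shorter STAT pattern TTCNNNGAA as TTCTTTGAA at position -99. The Ccl22, Ccl6 and Ccl3 windows held no match to any motif searched. In the Ccl9 window stood TATAAA at position -92, the AP-1 pattern TGANTCA as TGAATCA at position -53 and a match to the NF-κB motif at position -35. The window of Cxcl10, searched but not shown, held matches to the NF-κB motif at positions -159, -104 and -103. It also held the ISRE motif of interferon response at position -213 and the AP-1 pattern at position -74. The window of Cxcl2, likewise not shown, held matches to the NF-κB motif at positions -97 and -96. Among all 32851 windows of this length, 6.95% held TTCNNNNGAA, 8.3% TTCNNNGAA, 7.81% TGANTCA, 8.46% the NF-κB motif, 3.44% the ISRE motif of interferon response and 8.32% TATAAA. Both strands were searched, except for TATAAA, which was sought on the strand of the gene; matches to the NF-κB motif and its reverse can overlap. A match is a stretch of letters and not a measured binding site, and the absence of one says only that these letters are not in this window.

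The levels of the 10 ligands spanned a wide range. Ccl6 was the most abundant in every group, at 60.4 to 400.2 FPKM over all libraries, and made up 49.8% to 73.1% of the sum of the 10 genes. By group mean, Ccl3, Ccl9 and Ccl4 followed in that order in the cells without IL4, except in control cells with rosiglitazone, where Ccl9 (31.5 FPKM) was above Ccl3 (17.7 FPKM). Single libraries departed from it, such as KO DMSO library 2 with 18.2 FPKM of Ccl2 and 10.7 FPKM of Ccl4. Cxcl10 and Cxcl2 stayed at or below 1.4 FPKM. The sum of the 10 genes was 295 to 622.7 FPKM in KO and 369.6 to 510.1 FPKM in control cells with IL4, 135.3 to 327.1 and 120.8 to 180.4 FPKM in KO and control cells with rosiglitazone, 146.5 to 305.7 and 163.3 to 176.6 FPKM in KO and control cells with DMSO, and 110.1 to 267.5 and 156.3 to 190.2 FPKM in untreated KO and control cells. In each genotype the IL4 libraries lay above all untreated ones, and in each treatment the libraries of KO cells were the more widely spread.

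**Figure D1:**
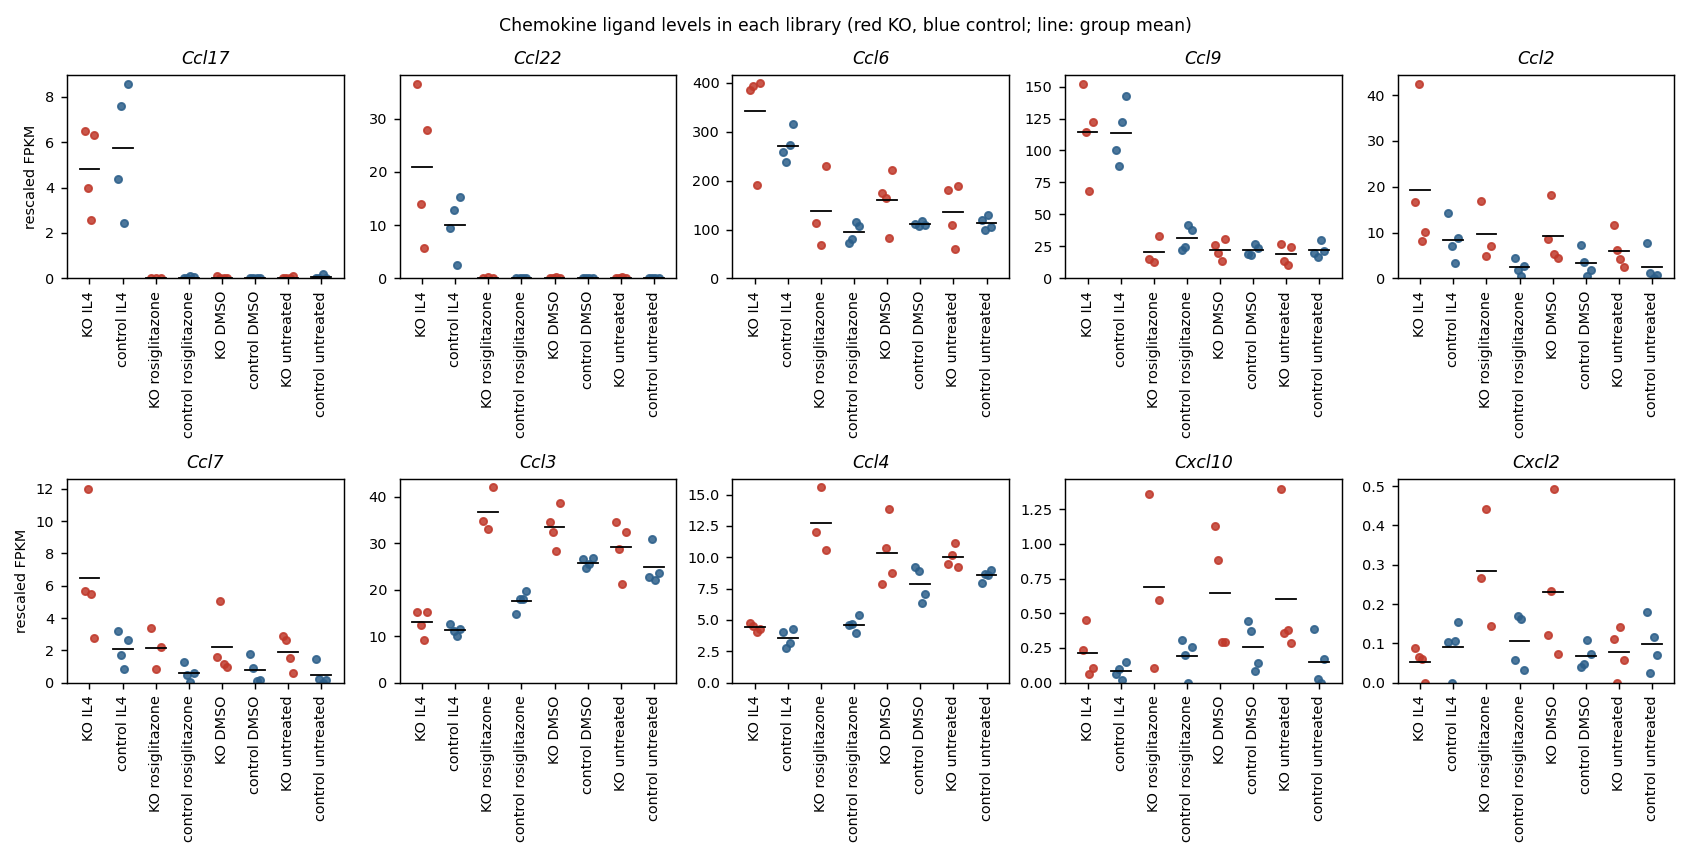
Level of each of the 10 chemokine ligands (rescaled FPKM, linear axes from 0 that differ between genes) in each of the 31 libraries, by group, with KO cells in red and control cells in blue; lines are group means. Ccl17 and Ccl22 reach at least 2.42 and 2.52 FPKM in the IL4 libraries and lie near 0 elsewhere, Ccl6 and Ccl9 are highest with IL4, and Ccl3 and Ccl4 are low with IL4 in both genotypes and low with rosiglitazone in control cells.

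IL4 changed 7 of the 9 tested ligands in each genotype, against 19.5% of all tested genes in KO and 23% in control cells. In KO cells 5 rose (Ccl6, Ccl7, Ccl9, Ccl17 and Ccl22) and 2 fell (Ccl3 and Ccl4), while 10.1% of all genes rose and 9.38% fell. In control cells 5 rose (Ccl2, Ccl6, Ccl9, Ccl17 and Ccl22) and the same 2 fell, where 11.9% of all genes rose and 11.1% fell. Ccl17 and Ccl22 were tested because of their IL4 libraries alone: a gene needed at least 1 FPKM as deposited in at least 3 libraries, and these 2 reached it in the 8 IL4 libraries and in 0 others. Of the 7 ligands that passed on the libraries without IL4, 3 rose and 2 fell in each genotype, where of all genes so chosen 9.53% rose and 9.51% fell in KO and 11.4% rose and 11.2% fell in control cells. The median difference over these 7 was 1.30 in KO and 1.09 in control cells, beside 0.004 and -0.003 over all such genes. The libraries with and without IL4 did not overlap for Ccl6, Ccl9, Ccl17 and Ccl22 on the high side and for Ccl3 and Ccl4 on the low side in either genotype; of all genes, 9.58% were without overlap on the high side and 8.72% on the low side in KO cells, and 15.8% and 15.3% in control cells. In bulk RNA, a change in the number of cells of a type and a change in RNA per cell cannot be told apart.

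Ccl17 was at or near 0 in all libraries without IL4. With IL4 it had 6.47, 3.98, 2.56 and 6.31 FPKM in KO cells and 4.38, 7.57, 2.42 and 8.54 FPKM in control cells. Untreated, it was listed at 0 in 3 of 4 libraries of each genotype, with 0.121 FPKM in the remaining KO library and 0.183 FPKM in the remaining control library. Every IL4 library was thus above every untreated one, and no fold change is given against libraries at 0. In a fit of all genes listed above 0, which does not depend on the filter, IL4 minus untreated was 2.44 ± 0.21 in KO cells (limma adjusted p = 5.51e-09) and 2.58 ± 0.21 in control cells (limma adjusted p = 1.77e-09). In cells with rosiglitazone or DMSO, Ccl17 had 0 to 0.086 FPKM.

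Ccl22, which shares its receptor with Ccl17, showed the same contrast at a higher level. Its levels with IL4 were 36.4, 13.9, 5.65 and 27.8 FPKM in KO cells and 9.53, 12.8, 2.52 and 15.3 FPKM in control cells. Untreated KO cells had 0.0167, 0.0431, 0.337 and 0.0515 FPKM, and untreated control cells had 0.0429, 0.0608, 0 and 0.147 FPKM. In the same fit without a filter, the difference was 4.03 ± 0.38 in KO cells (limma adjusted p = 1.54e-08) and 3.17 ± 0.38 in control cells (limma adjusted p = 7.69e-07). Library 3 of each genotype was lowest for both genes with IL4. In a comparison chosen after the values were seen, Ccl22 was 5.64, 3.5, 2.21 and 4.4 times Ccl17 in KO and 2.18, 1.69, 1.04 and 1.79 times Ccl17 in control IL4 libraries, so that the ratios in the 2 genotypes did not overlap; they were not tested.

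Ccl17 and Ccl22 are also products of dendritic cells. The 7 dendritic cell markers summed to 273.2 to 328 FPKM in KO and 288.7 to 331.4 FPKM in control cells with IL4, against 92.4 to 141 FPKM in KO and 148.9 to 160.4 FPKM in control untreated cells. Nearly all of that was Itgax, the integrin also carried by macrophages, which rose with IL4 by 1.42 ± 0.15 in KO and by 0.99 ± 0.15 in control cells (limma adjusted p = 2.54e-08 and 8.14e-06). Fscn1 had 0.0667 to 8.07 FPKM, with at least 1 FPKM in 21 of 31 libraries, and its difference with IL4 was -0.10 ± 0.50 in KO and 0.07 ± 0.50 in control cells (limma adjusted p = 0.929 and 0.953). The other 5 were low, with Flt3 at most at 0.0158, Xcr1 at 0.0474, Cd209a at 0.176, Ccr7 at 0.292 and Zbtb46 at 0.902 FPKM in any library. The part of such cells in the levels of Ccl17 and Ccl22 was not tested.

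Ccl6 and Ccl9 rose with IL4 in both genotypes. Ccl9 had 152.3, 114.6, 68.5 and 122 FPKM in KO and 100.4, 87.6, 122.4 and 142.9 FPKM in control IL4 libraries. It had 26.7, 13.4, 10.7 and 24.5 FPKM in KO and 19.7, 16.4, 29.7 and 21.7 FPKM in control untreated libraries. The lowest IL4 library was above the highest untreated one in each genotype, and the group means differed 6.07-fold in KO and 5.18-fold in control cells. On the log2 scale IL4 minus untreated was 2.58 ± 0.31 in KO cells (limma adjusted p = 3.73e-07) and 2.33 ± 0.31 in control cells (limma adjusted p = 1.72e-06). Ccl6, its neighbour, had 384.9, 393.6, 191.3 and 400.2 FPKM in KO and 258.3, 238.7, 273.7 and 315.8 FPKM in control IL4 libraries, against 180.7, 109.6, 60.4 and 189.4 FPKM in KO and 118.5, 98.9, 129.4 and 105.2 FPKM in control untreated libraries. Its rise was smaller, 2.54-fold in KO cells (1.41 ± 0.33, limma adjusted p = 0.00244) and 2.4-fold in control cells (1.26 ± 0.33, limma adjusted p = 0.00576). The Ccl6 call in KO cells was lost without the 3 libraries of low sum, 2 of which are untreated KO libraries (0.82, adjusted p = 0.136). KO library 3 was the lowest of its group for both genes.

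Ccl3 and Ccl4, which follow Ccl6 in gene order, fell with IL4. Ccl3 had 15.2, 12.5, 9.12 and 15.3 FPKM in KO and 12.6, 11.2, 10.1 and 11.5 FPKM in control IL4 libraries, against 34.6, 28.7, 21.3 and 32.5 FPKM in KO and 22.8, 30.9, 22 and 23.6 FPKM in control untreated libraries. No IL4 library reached the lowest untreated one. The difference was -1.11 ± 0.14 in KO cells (limma adjusted p = 1.12e-06) and -1.06 ± 0.14 in control cells (limma adjusted p = 2.39e-06). Ccl4 had 4.79, 4.55, 4.04 and 4.32 FPKM in KO and 4.02, 2.78, 3.17 and 4.29 FPKM in control IL4 libraries. Its untreated levels were 9.46, 10.2, 11.2 and 9.23 FPKM in KO and 7.94, 8.64, 8.63 and 9.02 FPKM in control libraries. These levels, too, were apart, with a difference of -1.02 ± 0.14 in KO cells (limma adjusted p = 1.99e-06) and -1.08 ± 0.14 in control cells (limma adjusted p = 7.74e-07). Ccl3 stayed 1.9 to 4.56 times as high as Ccl4 in all libraries.

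Ccl2 and Ccl7 were higher on average with IL4, and their libraries overlapped those of untreated cells. Ccl2 had 16.7, 42.4, 8.25 and 10.2 FPKM in KO and 14.3, 7.11, 3.43 and 8.88 FPKM in control IL4 libraries, against 11.6, 6.1, 4.17 and 2.43 FPKM in KO and 7.8, 1.13, 0.155 and 0.706 FPKM in control untreated libraries. It rose in control cells (1.80 ± 0.61, limma adjusted p = 0.0333). In KO cells the difference was 1.41 ± 0.61 (limma adjusted p = 0.11). It passed with the replicate number as a fixed or a random block (limma adjusted p = 0.00396 and 0.0363). Either block kept the call in control cells, where the libraries of number 2 correlated at only -0.199. The call in control cells was lost when control untreated library 2, 3 or 4 or control IL4 library 1, 2 or 4 was left out (adjusted p = 0.0743, 0.131, 0.0929, 0.114, 0.058 and 0.0719), over values of 1.44 to 2.41. Ccl7, which binds CCR2 like Ccl2, had 5.69, 12, 5.48 and 2.79 FPKM in KO and 3.21, 1.69, 0.836 and 2.62 FPKM in control IL4 libraries. Untreated, it had 2.9, 2.64, 1.53 and 0.623 FPKM in KO cells and 1.46, 0.241, 0 and 0.19 FPKM in control cells. It rose in KO cells (1.30 ± 0.41, limma adjusted p = 0.0228) and did not pass in control cells (1.09 ± 0.41, limma adjusted p = 0.0523). With the replicate number as a random or a fixed block, Ccl7 passed in control cells (limma adjusted p = 0.0163 and 0.0035). Without KO untreated library 4 or KO IL4 library 2 the call in KO cells was lost (adjusted p = 0.0929 and 0.118), and without control untreated library 1 or control IL4 library 3 the difference in control cells passed (adjusted p = 0.0208 and 0.0307), as it did at a pseudocount of 0.1 and in a fit of only these groups (adjusted p = 0.02 and 0.0227). Markers of mesothelial cells moved the same way: 3 of 6 tested rose with IL4 in KO cells (Krt18, Krt8 and Lrrn4) and 2 in control cells (Krt18 and Krt8), with medians of 0.64 and 0.37, and Krt18 rose by 1.17 ± 0.17 in KO and 0.79 ± 0.17 in control cells (limma adjusted p = 9.81e-06 and 0.00105). Of 5 tested fibroblast markers, 0 passed with IL4 in either genotype, with median differences of 0.215 in KO and 0.389 in control cells.

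Cxcl10 was low throughout and did not pass with IL4 in either genotype. It had 0.235, 0.449, 0.0598 and 0.103 FPKM in KO and 0.0608, 0.0983, 0.0209 and 0.151 FPKM in control IL4 libraries, against 1.4, 0.355, 0.382 and 0.283 FPKM in KO and 0.388, 0.025, 0 and 0.172 FPKM in control untreated libraries. The difference was -0.36 ± 0.20 in KO and -0.07 ± 0.20 in control cells (limma adjusted p = 0.224 and 0.863). Cxcl2 had 0 to 0.494 FPKM over all 31 libraries, below the level at which genes were tested.

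**Figure D2:**
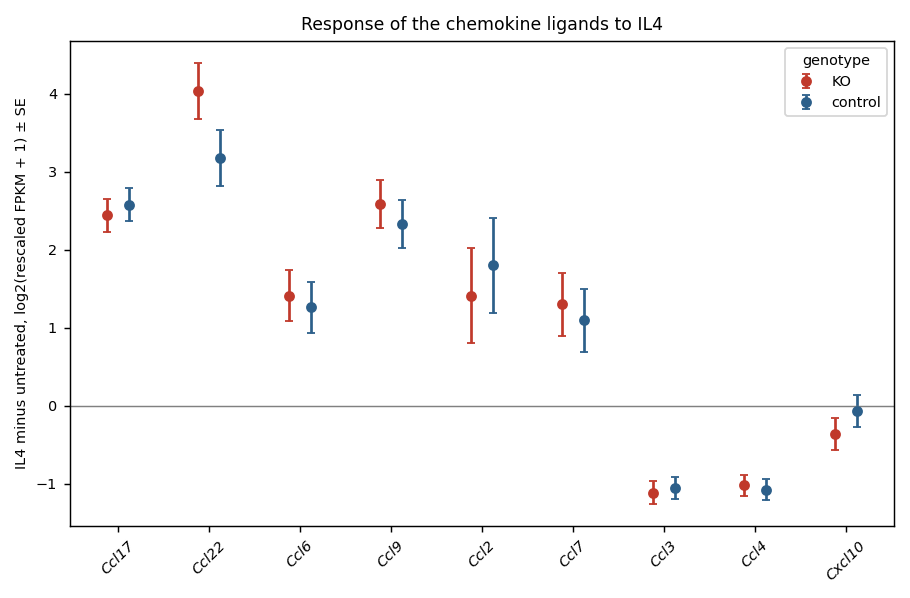
Difference between IL4-treated and untreated cells in log2(rescaled FPKM + 1) for the 9 tested ligands, in KO cells (red) and control cells (blue); points are limma estimates from 4 libraries against 4 and bars are their SE. Ccl22 (4.03 in KO, 3.17 in control) and Ccl17, Ccl9 and Ccl6 lie above 0, Ccl3 and Ccl4 near -1, and the responses of the 2 genotypes are at most 0.86 apart, for Ccl22.

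The response to IL4 was not shown to differ between the genotypes for any ligand. The difference of the responses, KO minus control, was called for 0 of 9 ligands by limma, with 0 at an unadjusted p under 0.05, where 0.697% of all genes passed. The largest was that of Ccl22 (0.86 ± 0.51, limma adjusted p = 1). With this SE, a difference of responses of that size could not be told from 0.

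With rosiglitazone, Ccl3 and Ccl4 fell in control cells, 2 of 9 ligands, where 1.36% of all tested genes fell and 3.11% rose. Ccl4 had 4.57, 4.65, 3.95 and 5.38 FPKM in control cells with rosiglitazone and 9.25, 8.87, 6.38 and 7.08 FPKM in control cells with DMSO. Ccl3 had 14.8, 18.1, 18 and 19.8 FPKM with rosiglitazone and 26.5, 24.6, 25.5 and 26.7 FPKM with DMSO. For both genes every rosiglitazone library was below every DMSO library, and 3.91% of all genes were so. The difference was -0.65 ± 0.14 for Ccl4 (limma adjusted p = 0.00315) and -0.53 ± 0.14 for Ccl3 (limma adjusted p = 0.0281). The call of Ccl3 was lost without control DMSO library 1, 3 or 4 (adjusted p = 0.0608, 0.0625 and 0.0766) or control rosiglitazone library 1 or 2 (adjusted p = 0.131 and 0.0619). On the deposited scale neither passed (-0.62 for Ccl4 and -0.49 for Ccl3, adjusted p = 0.229 and 1).

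In KO cells rosiglitazone changed none of the ligands by this test: 0 of 9 were called by limma, 0 had an unadjusted p under 0.05, and 0% of all tested genes passed. Ccl4 had 12, 15.6 and 10.6 FPKM in KO cells with rosiglitazone and 7.91, 10.7, 13.9 and 8.78 FPKM in KO cells with DMSO (0.29 ± 0.15, limma adjusted p = 1). For Ccl3 the levels were 34.8, 33.1 and 42.2 FPKM with rosiglitazone and 34.6, 32.5, 28.4 and 38.6 FPKM with DMSO (0.13 ± 0.15, limma adjusted p = 1). The libraries of the 2 treatments overlapped for both genes. The response of Ccl4 to rosiglitazone was higher in KO than in control cells by 0.94 ± 0.20 (limma adjusted p = 0.0128), where 0.107% of all genes passed in that direction; that of Ccl3 was higher by 0.66 ± 0.21 and did not pass (limma adjusted p = 0.241). The Ccl4 call was lost without KO rosiglitazone library 2 (0.80, adjusted p = 0.0803) and on the deposited scale (0.83, adjusted p = 0.97).

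Ccl6 and Ccl9, called neither in KO nor in control cells with rosiglitazone, stood in another proportion there. Ccl9 had 22, 24.2, 42.1 and 37.9 FPKM in control cells with rosiglitazone and 19.3, 18.5, 27.1 and 23.8 FPKM with DMSO (0.45 ± 0.31, limma adjusted p = 0.576). Ccl6 had 73.2, 80.7, 115.6 and 107.7 FPKM with rosiglitazone and 110.3, 106.5, 116.7 and 109.6 FPKM with DMSO (-0.26 ± 0.33, limma adjusted p = 0.833). The ratio of Ccl6 to Ccl9 within a library, chosen after the values were seen and not tested, was 2.75 to 3.34 in control cells with rosiglitazone and 4.31 to 5.75 with DMSO, without overlap. In KO cells it was 5.31 to 7.26 with rosiglitazone and 6.07 to 8.46 with DMSO, which overlap. It was 2.53 to 3.43 in KO and 2.21 to 2.72 in control cells with IL4, and 5.67 to 8.18 in KO and 4.35 to 6.05 in control untreated cells.

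**Figure D3:**
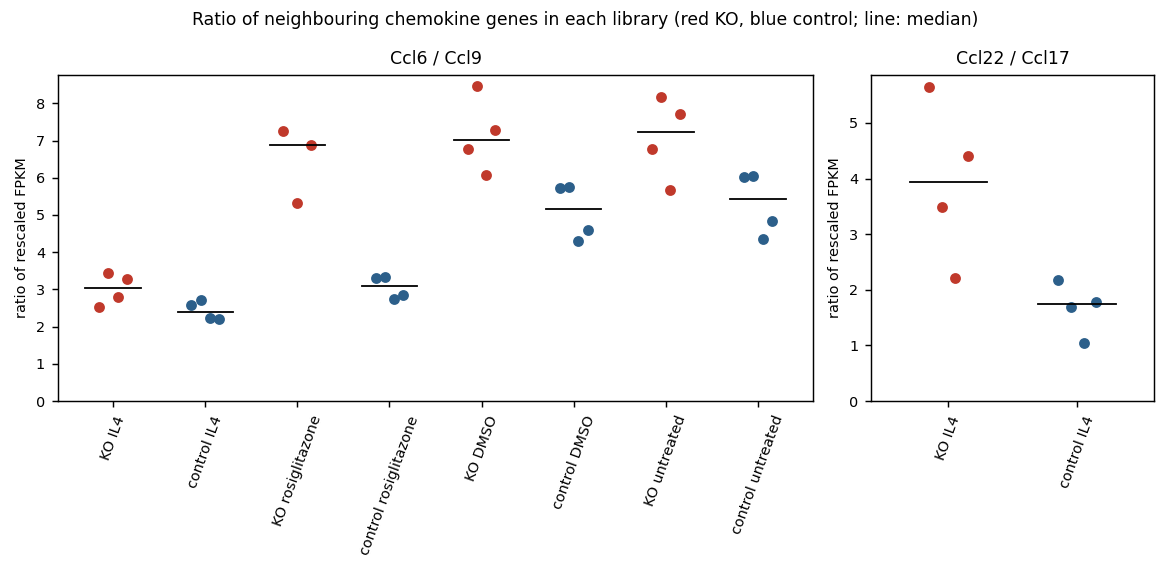
Ratio of the rescaled FPKM of Ccl6 to Ccl9 in each library of the 8 groups (left) and of Ccl22 to Ccl17 in the IL4 libraries (right), with KO cells in red, control cells in blue and the group median as a line; both axes start at 0. The ratio of Ccl6 to Ccl9 is low with IL4 in both genotypes and with rosiglitazone in control cells (2.75 to 3.34), and that of Ccl22 to Ccl17 is 2.21 to 5.64 in KO against 1.04 to 2.18 in control libraries.

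DMSO alone changed no ligand by this test. Against untreated cells 0 of 9 were called by limma in KO and 0 in control cells, with 0 at an unadjusted p under 0.05 in each, and 0% of all genes passed in either genotype. The largest differences were those of Ccl2, 0.51 ± 0.61 in KO and 0.54 ± 0.61 in control cells (limma adjusted p = 1 and 0.8).

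Between the genotypes, ligands passed in 1 of 4 treatments. With rosiglitazone, Ccl3 and Ccl4 were higher in KO than in control cells, 2 of 9 ligands, where 5.05% of all genes were higher and 6.68% lower. Ccl4 averaged 12.7 ± 2.6 FPKM in KO and 4.64 ± 0.586 FPKM in control cells (SD, n = 3 and 4), a difference of 1.27 ± 0.15 on the log2 scale (limma adjusted p = 2.34e-07). Ccl3 averaged 36.7 ± 4.84 FPKM in KO and 17.7 ± 2.06 FPKM in control cells (SD, n = 3 and 4), a difference of 1.01 ± 0.15 (limma adjusted p = 2.21e-05). No library overlapped for either gene, nor for Ccl2, at 16.8, 4.98 and 7 FPKM in KO and 4.5, 1.9, 0.439 and 2.78 FPKM in control cells (1.64 ± 0.66, limma adjusted p = 0.12); 8.62% of all genes were higher in KO cells without overlap. Both calls held in each alternative and with each library left out.

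Untreated, with DMSO and with IL4, limma called 0 of 9 ligands between the genotypes, where 4.34%, 3.53% and 10.8% of all genes passed; at an unadjusted p under 0.05 there were 3, 3 and 2. Cxcl10, 1 of the 3 untreated, was tested because of 3 KO libraries and reached 1 FPKM in 0 control libraries. Over the 8 ligands that passed on the control libraries, the median difference was 0.16 untreated, 0.34 with DMSO, 0.65 with rosiglitazone and 0.27 with IL4, beside values from -0.01 to 0.001 over all genes so chosen. Untreated, the largest differences were those of Ccl2 (1.36 ± 0.61, limma adjusted p = 0.255) and Ccl7 (1.00 ± 0.41, limma adjusted p = 0.191). Ccl4 had 9.23 to 11.2 FPKM in KO and 7.94 to 9.02 FPKM in control untreated cells, without overlap, and its difference of 0.20 ± 0.14 did not pass (limma adjusted p = 0.522); it was -0.02 on the deposited scale. Of all genes, 3.88% were higher in KO untreated cells without overlap. With DMSO, Ccl3 did not overlap, at 28.4 to 38.6 FPKM in KO and 24.6 to 26.7 FPKM in control cells (0.36 ± 0.14, limma adjusted p = 0.214), and 3.94% of all genes were higher in KO without overlap. Ccl22 did not overlap with DMSO either, at 0.0488 to 0.266 FPKM in KO and 0 to 0.0365 FPKM in control cells, levels well below 1 FPKM.

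With IL4, Ccl7 was close to the threshold, with a difference of 1.21 ± 0.41 (limma adjusted p = 0.0554). It passed on the deposited scale (1.29, adjusted p = 0.0382), without control IL4 library 1 (adjusted p = 0.0456) and without KO IL4 library 4 (adjusted p = 0.0239). Ccl22 averaged 20.9 ± 13.8 FPKM in KO and 10.1 ± 5.56 FPKM in control cells (SD, n = 4), a difference of 0.92 ± 0.36 (limma adjusted p = 0.115). It passed without KO IL4 library 3 (1.40, adjusted p = 0.00272) and without control IL4 library 4 (1.18, adjusted p = 0.0491). Ccl6, Ccl9 and Ccl17 differed by 0.28 ± 0.33, -0.02 ± 0.31 and -0.16 ± 0.21 (limma adjusted p = 0.759, 0.988 and 0.798). Cxcl10 with rosiglitazone had 1.36, 0.109 and 0.599 FPKM in KO and 0.308, 0.199, 0 and 0.258 FPKM in control cells (0.44 ± 0.22, limma adjusted p = 0.221), and the groups overlapped.

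**Figure D4:**
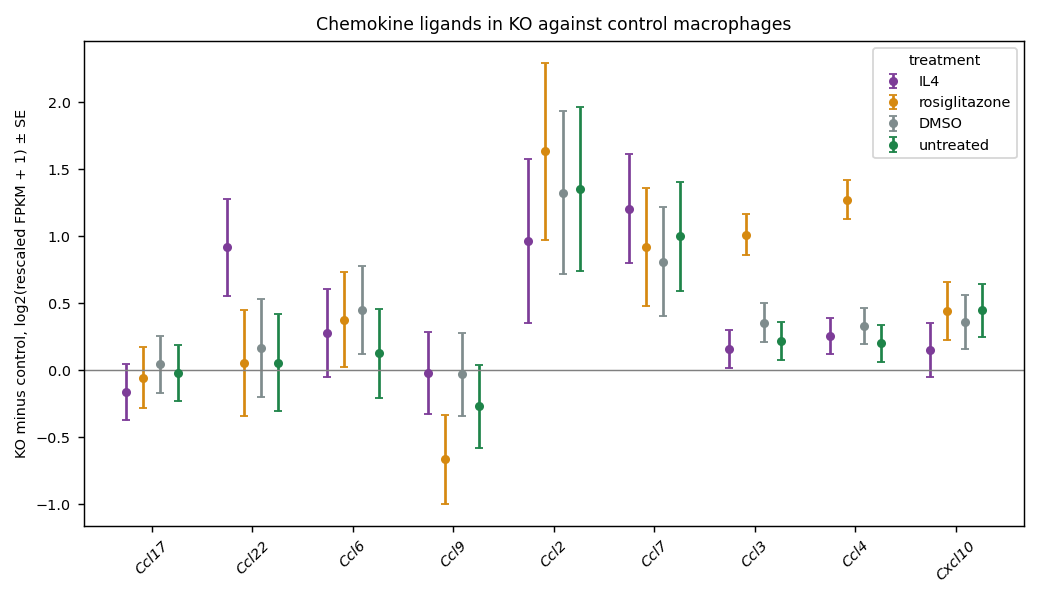
Difference between KO and control cells in log2(rescaled FPKM + 1) for the 9 tested ligands in the 4 treatments (colours); points are limma estimates from 4 libraries against 4, or 3 against 4 with rosiglitazone, and bars are their SE. Ccl3 (1.01) and Ccl4 (1.27) with rosiglitazone stand out for their size against their SE, while Ccl2 and Ccl7 lie 0.81 to 1.64 above 0 in the 4 treatments with wide bars.

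In a comparison added after the data were seen, the levels of untreated, DMSO and IL4 libraries with the same number were averaged, and 4 KO numbers were set against 4 control numbers. Of the 9 ligands 0 were called by limma, where 5.29% of all genes passed. Ccl4 had 3.02 to 3.28 on the log2 scale over the KO numbers and 2.74 to 2.95 over the control numbers. The share of all genes without overlap in this comparison was not counted. The difference of Ccl4, 0.26 ± 0.08, did not pass (limma adjusted p = 0.0869). The differences of Ccl2 (1.22 ± 0.51), Ccl7 (1.01 ± 0.34) and Cxcl10 (0.32 ± 0.14) did not pass either (limma adjusted p = 0.244, 0.14 and 0.261).

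The spread of Ccl2 and Ccl7 went with the library numbers. In control cells library 1 was highest for Ccl2 in all 4 treatments and library 3 lowest, at 14.3 and 3.43 FPKM with IL4, 4.5 and 0.439 FPKM with rosiglitazone, 7.25 and 0.588 FPKM with DMSO and 7.8 and 0.155 FPKM untreated. Ccl7 had its highest value in control library 1 and its lowest in control library 3 in each treatment as well. Among KO libraries, number 2 was highest for Ccl2 and Ccl7 with IL4 and with DMSO. The 2 genes kept a ratio of 1.51 to 8.92 in all libraries with Ccl7 above 0.

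Marker genes of other cells followed this spread in part. The 6 fibroblast markers, all listed, summed to 28.2 to 126 FPKM in KO and 2.46 to 32.6 FPKM in control cells with IL4, 29 to 74.4 and 2.04 to 32.8 FPKM in KO and control cells with rosiglitazone, 22.1 to 100.5 and 2.58 to 34.2 FPKM in KO and control cells with DMSO, and 18.1 to 84.8 and 1.76 to 41.1 FPKM in KO and control untreated cells. The sum was highest in control library 1 and lowest in control library 3 in each treatment, and highest in KO library 2 with IL4 and with DMSO, the same libraries as for Ccl2. Untreated KO cells departed from this. Library 3 had a fibroblast sum of 83.1 FPKM and 4.17 FPKM of Ccl2, while library 2 had 37.5 and 6.1 FPKM. None of the 5 tested fibroblast markers passed between KO and control cells in any treatment. The 7 mesothelial markers summed to 8.48 to 32.9 FPKM in KO and 1.98 to 8.34 FPKM in control cells with IL4, and to 5.07 to 10 FPKM in KO and 1.25 to 5.65 FPKM in control untreated cells; with IL4, Krt18 (0.94 ± 0.17) and Krt8 (0.82 ± 0.17) were higher in KO than in control cells (limma adjusted p = 0.000299 and 0.00097). With DMSO the mesothelial sum was 4.71 to 13.3 FPKM in KO and 0.742 to 4.18 FPKM in control cells. With rosiglitazone it was 5.855 to 11.4 FPKM in KO and 0.724 to 5.45 FPKM in control cells. In control cells with DMSO it was higher in library 4 (4.18 FPKM) than in library 1 (3.998 FPKM). The part of fibroblasts and mesothelial cells in the levels of Ccl2 and Ccl7 was not tested.

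**Figure D5:**
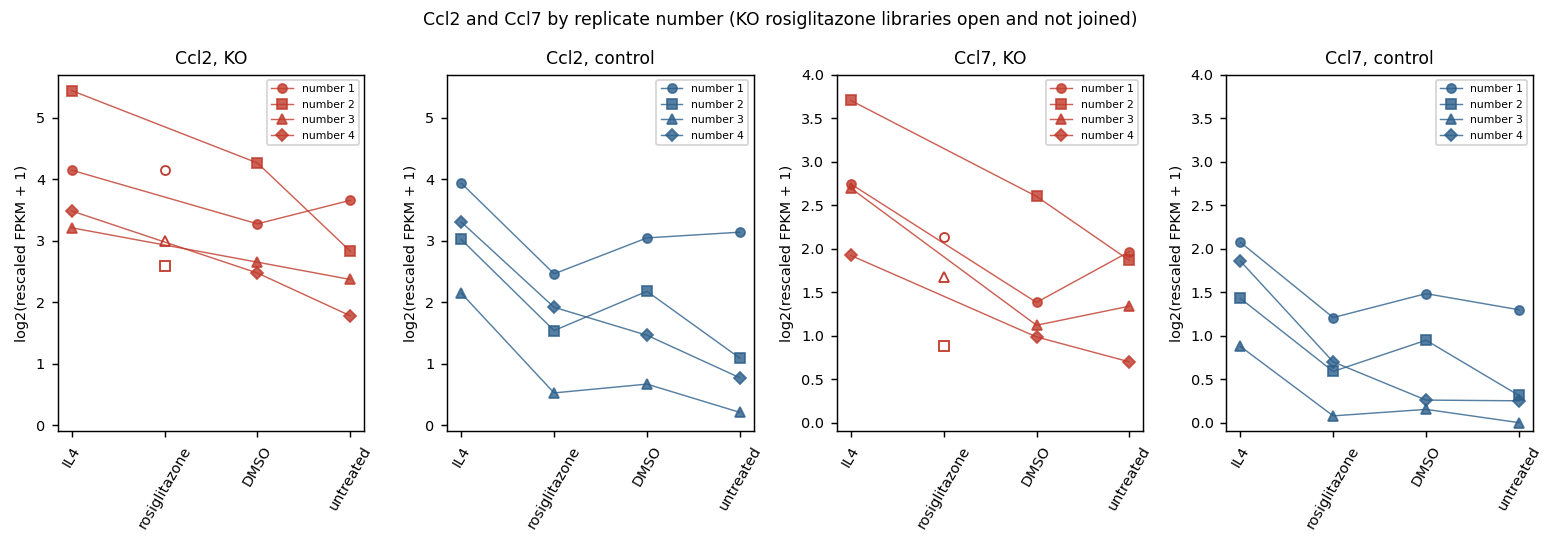
Level of Ccl2 (left pair) and Ccl7 (right pair) in log2(rescaled FPKM + 1) by treatment in KO (red) and control (blue) cells; a line joins libraries with the same number, and the 3 KO rosiglitazone libraries are open and not joined. Control library 1 lies highest and control library 3 lowest in each treatment for both genes, and KO library 2 lies highest with IL4 and DMSO.

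KO libraries also differed by number in Ccl6, Ccl9 and Ccl4. Library 3 was lowest for Ccl6 with IL4, with DMSO and untreated, at 191.3, 83.1 and 60.4 FPKM, where the other KO libraries had 384.9 to 400.2, 164.9 to 221.7 and 109.6 to 189.4 FPKM. It was lowest for Ccl9 in the same 3 treatments, and highest for Ccl4 with DMSO and untreated (13.9 and 11.2 FPKM) but lowest with IL4 (4.04 FPKM). KO rosiglitazone library 2 was the lowest of its group for Ccl6 (67.4 FPKM) and Ccl9 (12.7 FPKM) and the highest for Ccl4 (15.6 FPKM). By the correlation of their deviations from the group means over all genes, the 3 KO rosiglitazone libraries, numbered 1, 2 and 3, were most like the KO libraries numbered 2, 3 and 4.

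Among 27 other chemokine ligands, all listed, 10 were tested. With IL4, 1 of them rose and 2 fell in each genotype; 1 in 10 is close to the 10.1% and 11.9% of all genes that rose. The gene that rose was Ccl24, which attracts eosinophils; it reached 1 FPKM only in the 4 KO IL4 libraries and was tested because of them. It had 4.21 to 14.2 FPKM in KO and 0.482 to 0.671 FPKM in control cells with IL4, against at most 0.169 FPKM in KO and 0.0728 FPKM in control untreated cells. In the fit without a filter it rose by 2.98 ± 0.17 in KO and 0.63 ± 0.17 in control cells (limma adjusted p = 1.01e-12 and 0.00976), and the difference of these responses was 2.35 ± 0.23 (limma adjusted p = 9.9e-07). Cxcl14 fell in both genotypes, Ccl27a in KO cells and Cxcl16, a membrane-bound ligand of CXCR6, in control cells. Between KO and control cells, 1 of 10 was higher untreated, with DMSO and with rosiglitazone, and 4 with IL4, with none lower. Of all tested genes, 1.76% were higher in KO untreated, 1.34% with DMSO, 5.05% with rosiglitazone and 5.06% with IL4. Cxcl16 was higher in all 4 treatments, by 1.03 to 2.00, and Ccl24, Cxcl12 and Cxcl1 with IL4. The last 3 did not pass the filter on the control libraries. Of the 5 that did, 1 was higher in each treatment, which was Cxcl16. Among all genes so chosen, 1.49% were higher untreated, 1.1% with DMSO, 4.61% with rosiglitazone and 4.28% with IL4. With rosiglitazone Cxcl16 fell in control cells (-0.93 ± 0.09, limma adjusted p = 8.15e-08), in the same direction as Ccl3 and Ccl4, and its response differed between KO and control cells (0.95 ± 0.14, limma adjusted p = 9.53e-05).

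From the list of receptors and decoys, values are given here for Ccrl2 and Ccr2. Ccrl2 fell with IL4 in KO (-1.15 ± 0.17) and control cells (-1.33 ± 0.17, limma adjusted p = 8.54e-06 and 8.53e-07). Ccr2, the receptor of Ccl2 and Ccl7, was higher in KO cells with rosiglitazone (0.75 ± 0.18, limma adjusted p = 0.0055).

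The 16 genes of the NF-κB pathway and its feedback were all tested. In KO against control cells 4 were higher untreated (Nfkb2, Bcl3, Relb and Traf1), 0 with DMSO, 6 with rosiglitazone and 4 with IL4 (Relb, Nfkbie, Traf1 and Bcl3), with 0 lower; the median differences were 0.16, 0.15, 0.2 and 0.21, beside 0, 0.002, -0.004 and 0.007 over all genes. The subunit Relb differed by 0.52 ± 0.11 with rosiglitazone and 0.59 ± 0.10 with IL4 (limma adjusted p = 0.0015 and 0.000161). With rosiglitazone 0 of 16 passed in KO and 0 in control cells. With IL4 the adaptor gene Traf1 and the subunit Rela fell in both genotypes and Rel rose in both. Of 16 tested IL4 and STAT6 response genes, 13 rose with IL4 in each genotype, with a median of 2.2 in KO and 2.27 in control cells. Among 7 tested inflammatory cytokines and enzymes, 2 rose with IL4 in KO cells (Ptgs2 and Cd40) and 4 fell, and in control cells 0 rose and 3 fell (Il1rn, Icam1 and Cd86). The adhesion molecule Icam1 fell by 0.89 ± 0.11 on the log2 scale in KO and by 0.56 ± 0.11 in control cells (limma adjusted p = 4.49e-07 and 0.000317). Between KO and control cells, 1 of these 7 genes was higher in KO untreated, 1 with DMSO, 3 with rosiglitazone and 4 with IL4, with 0 lower. Of 13 tested interferon response genes, the group to which Cxcl10 belongs, 5 were higher in KO than in control cells with rosiglitazone and 3 with IL4, 1 with DMSO and 0 untreated, with 0 lower. Of 9 tested immediate early genes, 5 rose with IL4 in KO cells, and 4 rose and 1 fell in control cells. For these lists, the shares of all tested genes higher in KO than in control cells were 1.76% untreated, 1.34% with DMSO, 5.05% with rosiglitazone and 5.06% with IL4; with IL4 10.1% of all genes rose and 9.38% fell in KO, and 11.9% rose and 11.1% fell in control cells.

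The genes most alike in level over the 31 libraries were named for the 4 ligands with the widest range of group means, by the root mean square difference of the centred log2 levels. They were Ocstamp (0.4), Rbp4 (0.46) and Cish (0.51) for Ccl22, whose own SD was 1.69; Pdia4 (0.32), Rbp4 (0.33) and Irf4 (0.35) for Ccl17 (SD 1.16); Tnip3 (0.43), F10 (0.43) and Ankrd55 (0.45) for Ccl9 (SD 1.12); and the histone genes Hist1h1b (0.42), Hist1h1a (0.43) and Hist1h2bm (0.46) for Ccl2 (SD 1.22). The likeness is a description over libraries of which many may share mice.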

How the data were processed

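Total RNA of 31 libraries was sequenced after a stranded TruSeq preparation, per the labels' protocols. The authors deposited FPKM per gene; per the submitters' processing notes the tools were TopHat2, featureCounts and edgeR with build mm9, without versions or settings. Read counts and depth are not given, so no counting interval is stated, and an FPKM listed as 0 may be a failed estimate. Of 24302 symbols, 25 are dates made by a spreadsheet (0.136% of FPKM) and were left out. Genes with at least 1 FPKM as deposited in at least 3 libraries were tested (10327). Each library was divided by its median ratio to the geometric mean over 10215 of these genes. Group means of log2(FPKM + 1) were fitted with limma 3.58.1 (R 4.3.3) with an intensity trend, for 12 comparisons, two-sided, with p adjusted by Benjamini and Hochberg over all tested genes; the fit was tested on simulated data. The members and gene lists were chosen with earlier results of these data known. All members are named, with up to 4 called genes of a list per comparison, and others as chosen after their values were seen. Whether library numbers pair the samples was checked by correlating deviations from group means: all pairs exceeded 0.1 for IL4 against untreated in KO cells (0.57, 0.17, 0.74 and 0.66), DMSO against untreated in KO cells and rosiglitazone against DMSO in control cells, but not in the others. Promoters and gene order are from RefSeq (GRCm38.p6), another build than the authors'; windows of Ccl2, Ccl4 and Ccl7 are not used here. For genes that passed this filter only through the group where they are high, values come from a fit of all genes listed above 0, and counts and medians are also given over the genes that passed on the libraries without IL4 or on the control libraries, a choice made after seeing the data. Alternatives were the deposited scale, another pseudocount (0.1), no filter, a mean of at least 5 FPKM, separate fits, blocks by number, and libraries left out.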

Additional observations from a re-analysis of the deposited data

Results flagged for a closer look

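In 69 groups of values of the ligands, 8 held a library far from the others of its group. The limit used sets about 1 in 20 groups apart if values are independent and normally distributed. These FPKM are not, so the count cannot be set against that rate. A group with all but 1 library at 0 is always set apart. For Ccl2 and Ccl7, control untreated library 1 stood high, at 7.8 and 1.46 FPKM, and KO DMSO library 2 stood high for Ccl7, at 5.06 FPKM. These are libraries with high sums of fibroblast markers (41.1 and 100.5 FPKM). KO untreated libraries 1 and 3 (84.8 and 83.1 FPKM) and KO IL4 library 2 (126 FPKM) had high sums too. They were not set apart for Ccl2 or Ccl7. The part of fibroblasts was not tested. Ccl6 was low in KO IL4 library 3, at 191.3 FPKM. Cxcl10 was high in KO untreated library 1, at 1.4 FPKM. At very low levels, Ccl17 stood apart in KO untreated library 4 (0.121 FPKM) and control untreated library 3 (0.183 FPKM), the others being listed at 0, and Ccl22 in KO untreated library 3 (0.337 FPKM).

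By a test of the difference between the genotypes, the response of Ccl4 to rosiglitazone was higher in KO than in control cells by 0.94 (limma adjusted p = 0.0128). Among the other ligands, the response of Cxcl16 was higher in KO cells by 0.95 with rosiglitazone and by 0.85 with IL4 (limma adjusted p = 9.53e-05 and 0.000379), and that of Ccl24 to IL4 by 2.35 (limma adjusted p = 3.4e-07; 9.9e-07 without a filter on low values, since Ccl24 was tested because of its KO IL4 libraries).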

How the results depend on the processing

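No difference of a called ligand turned its direction in any alternative. On the deposited scale the count of called ligands was 0 for rosiglitazone against DMSO in control cells and 0 for the difference of the rosiglitazone responses, and 1 (Ccl7) for KO against control with IL4. Ccl2 and Ccl6 also missed the threshold with IL4 in control cells there (adjusted p = 0.0521 and 0.0728). At a mean of at least 5 FPKM, where fewer genes were tested, 4 ligands were called with IL4 in KO cells. Fits of only the groups compared called 0 for the difference of the rosiglitazone responses (Ccl4, adjusted p = 0.152), and Ccl7 with IL4 in KO cells missed the threshold (adjusted p = 0.066); it did so at a pseudocount of 0.1 (adjusted p = 0.13) and without the 3 libraries of low sum (adjusted p = 0.0698). Ccl2 with IL4 in control cells missed it with no filter and without those libraries (adjusted p = 0.0622 and 0.0657). The cause of these changes was not tested.

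With the replicate block as a fixed term, 2 ligands were called for the difference of the rosiglitazone responses, Ccl4 and Ccl3 (adjusted p = 0.0423), and again 2 with the KO rosiglitazone libraries matched to numbers 2 to 4, a choice made after seeing the data, where Ccl9 also passed with rosiglitazone in control cells (0.45, adjusted p = 0.0106). With the block as a random term, 1 ligand (Ccl7) was called for KO against control with IL4, and with the matched numbers 1 there and 2 for the difference of the rosiglitazone responses. With the random block, Ccl7 passed with IL4 in control cells (adjusted p = 0.0163). With the matched numbers, Cxcl10 passed with IL4 in KO cells (-0.36, adjusted p = 0.0473 with the random and 0.0398 with the fixed block), as did Ccl2 between KO and control cells with rosiglitazone with the random block (1.73, adjusted p = 0.0198). The block ended no call of a ligand. The consensus correlation within numbers was 0.183 as titled and 0.469 as matched.

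Leaving out 1 library at a time gave 0 to 1 called ligands for KO against control with IL4, 1 to 2 for rosiglitazone against DMSO in control cells and 0 to 1 for the difference of the rosiglitazone responses. The depth behind each FPKM is unknown, so how far counting error limits the values below 1 FPKM, such as those of Cxcl10, Cxcl2 and untreated Ccl17 and Ccl22, cannot be given.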
